A study of Mus musculus with 3 samples.

Results

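FLRT proteins and semaphorins are cell-surface and secreted guidance factors, and plexins are receptors of semaphorins. From these families 10 genes were followed here in mouse gastrocnemius, a calf muscle, after activation of the growth kinase Akt. They were Flrt1, Flrt2, Flrt3, Sema3a, Sema3b, Sema3c, Sema3f, Sema6c and the plexin genes Plxna1 and Plxna3. Every probe set that the platform annotation assigned to these symbols was taken, which gave 25 probe sets; the arrays cover 18193 genes in all. The genes were chosen by earlier readings of the same arrays, in which Flrt1 and Sema3f had some of the highest ratios to oil, so their ratios are given as a description and carry no test. RNA was hybridised to short-oligonucleotide Affymetrix arrays of the whole mouse genome, which report 1 intensity per probe set, a group of probes for the same transcript.

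All 3 groups, per the labels, were C57BL/CD1 mice of the Akt_Cre transgenic genotype, with Akt fused to the oestrogen-binding domain in skeletal muscle, so the controls carried the transgene too. The control group received oil for 24 h, and the other groups received tamoxifen for 24 h or for 48 h. Tamoxifen is described as stabilising the fusion, after which the muscle enlarges. The sources used here do not give the age and sex of the mice, the promoter of the transgene or the role of Cre in the genotype name. One array was run per group on a pool of the RNA of 3 to 4 mice. Replicate errors and p-values can therefore not be given, and variation between mice is averaged within a pool and not measured. No 48 h oil array and no tamoxifen array of mice without the fusion was analysed here, so at 48 h time and treatment cannot be told apart, and at either time an action of tamoxifen outside Akt cannot be told apart from that of Akt.

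FLRT proteins (fibronectin leucine-rich transmembrane proteins) cross the membrane, with leucine-rich repeats outside the cell through which they bind latrophilins on other cells to adhere and Unc5 receptors to repel, and they also associate with the FGF receptor. Semaphorins steer axons, blood vessels and migrating cells. Class 3 semaphorins are secreted and bind a neuropilin, which pairs with a plexin of the A family; the plexin carries the signal inward to small GTPases and the actin cytoskeleton. Semaphorins of class 6 stay in the membrane and bind A plexins directly. In muscle this system is known from motor axon guidance, the neuromuscular junction and signals that satellite cells send to nerves during repair.

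Values below are intensities on the linear scale after the arrays were brought to a common median, and ratios are log2 values after a floor of 4.05 was set, unless a fold is stated. A gene is called higher or lower where it differed by 2-fold or more. Dim probe sets were filtered out by a mean percentile rank under 0.5 on the arrays. Of the 25 probe sets 15 passed and are called kept, which stand for 9 of the 10 genes, and Flrt3 had none. A dim gene can pass that filter because of the array on which it reads high, so the kept genes are not a full account of the set and all 25 probe sets are described. Where a single value stands for a gene, it comes from the kept probe set with the highest rank. In bulk muscle RNA, a change in the number of cells of a type and a change in RNA per cell cannot be told apart.

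Flrt1 ranked 1 of 11092 kept genes by its ratio to oil at both times. Its first probe set (1460041_at) read 29.7 with oil and 311 and 535 after 24 h and 48 h of tamoxifen. The second (1443143_at) read 7.89, 80.3 and 159.9. Both were low on oil, far above it at 24 h and higher again at 48 h. The log2 ratios at 24 h were 3.39 and 3.35, or 10.5-fold and 10.2-fold, and at 48 h they were 4.17 and 4.34, or 18.0-fold and 20.3-fold. From 24 h to 48 h of tamoxifen the ratios were 0.78 and 0.99, both short of 2-fold. The probe sets of Flrt1 thus differed from each other by less than the usual spread between kept probe sets of the same gene. That spread was a standard deviation of 0.488 at 24 h and 0.412 at 48 h over 5001 genes. It can hold differences between transcripts as well as measurement error, and it does not cover mice or arrays.

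Flrt2 and Flrt3 lay on the other side of oil. Flrt2 (1455096_at) read 130.9 with oil, then 104.3 and 91.8 with tamoxifen. Its second kept probe set (1438702_at) read 87.4, 49.3 and 65.0, and a dim one (1456874_at) read 15.8, 8.82 and 12.7. All 3 were below oil at both times, with ratios between -0.84 and -0.33 at 24 h and between -0.51 and -0.32 at 48 h, none of them past 2-fold. They did not agree on the course from 24 h to 48 h, where the first went down by 0.18 and the others up, to 0.40 and 0.52. Flrt3 was dim throughout: 1429310_at read 19.2, 12.3 and 7.18 and 1453102_at read 8.34, 5.65 and 4.41. Both stepped down from oil to 24 h and again to 48 h, where the ratios were -1.42 and -0.92, the first 2.68-fold below oil. These readings lie close to the floor, and neither probe set was kept.

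The promoters of Flrt2 and Flrt3 are shown because their readings lay on the opposite side of oil from those of Flrt1. RefSeq (GRCm38.p6) promoter sequences matched 6 of the 10 genes, with 7 starts; Flrt1, Sema3b, Sema3f and Plxna1 had none. The 250 bases before each start were searched on both strands for the E-box CAGCTG, the forkhead core TGTTTAC, the cyclic AMP element TGACGTCA, the CCAAT box CCAAT and the GC box GGGCGG, and capitals mark matches. The Flrt2 window is chr12:95691976-95692225 on the plus strand and the Flrt3 window is chr2:140671477-140671726 on the minus strand.
Flrt2: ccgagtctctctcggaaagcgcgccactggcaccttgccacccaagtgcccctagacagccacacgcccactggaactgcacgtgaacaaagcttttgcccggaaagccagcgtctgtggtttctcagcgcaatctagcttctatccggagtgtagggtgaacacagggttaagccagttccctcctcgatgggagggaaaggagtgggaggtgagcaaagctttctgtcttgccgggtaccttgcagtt
Flrt3: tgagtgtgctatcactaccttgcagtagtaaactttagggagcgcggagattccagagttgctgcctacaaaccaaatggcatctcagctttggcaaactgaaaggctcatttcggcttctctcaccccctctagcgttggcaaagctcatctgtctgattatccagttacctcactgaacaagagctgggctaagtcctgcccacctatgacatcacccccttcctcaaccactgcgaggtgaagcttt
None of the searched words occurs in either window, which says only that these letters are not there. The forkhead core was in 3.17% and the E-box in 13.0% of all 32851 windows of this length. G and C made up 57.2% of the Flrt2 window and 50% of the Flrt3 window, against a median of 52.4% over all windows.

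**Figure D1:**
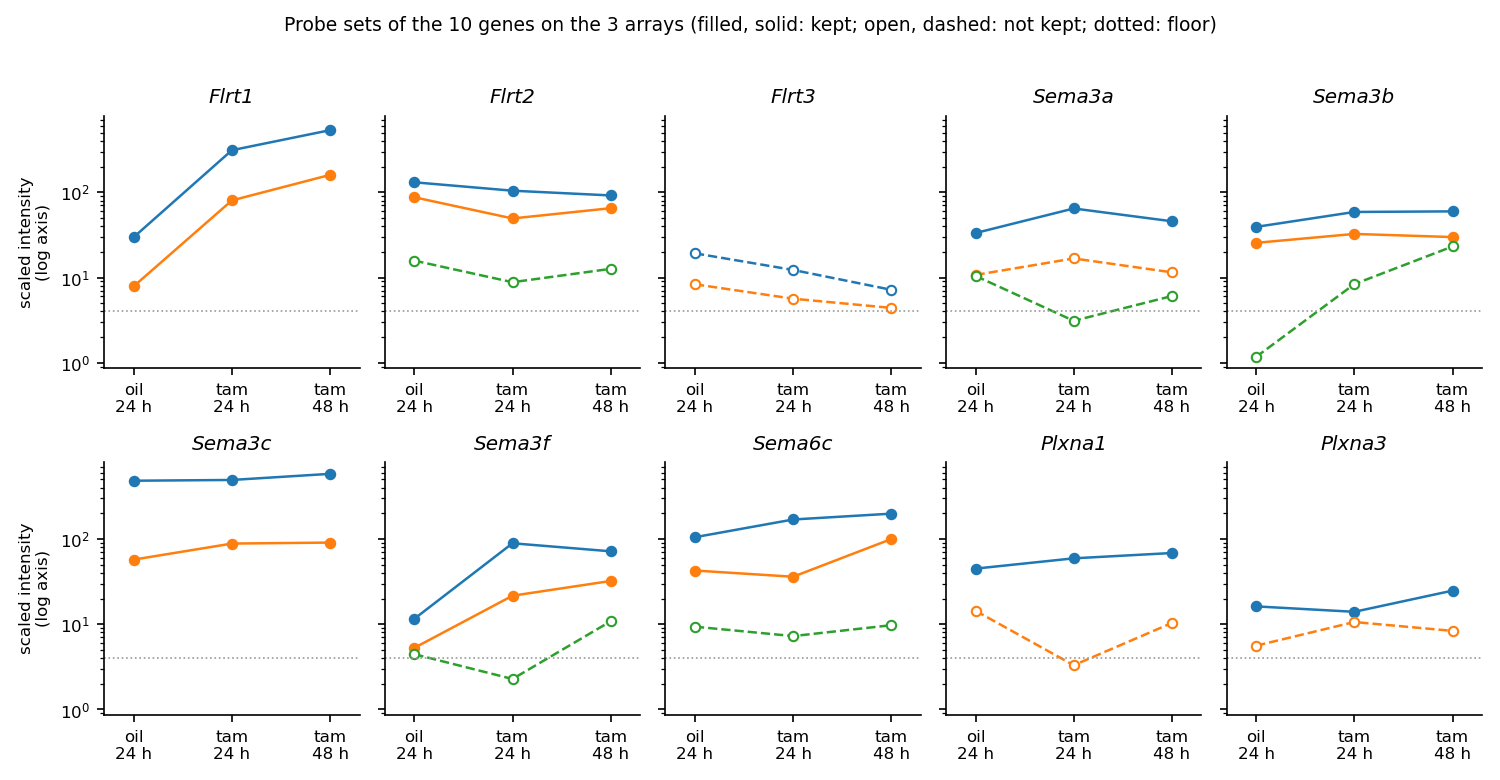
Scaled intensity (log axis) of each probe set of the 10 genes on the oil 24 h, tamoxifen 24 h and tamoxifen 48 h arrays, with 1 point per array and a line per probe set. Filled points and solid lines are kept probe sets, open points and dashed lines are the others, and the dotted line is the floor of 4.05; both Flrt1 lines climb from oil to 24 h and 48 h, while the Flrt2 and Flrt3 lines lie below their oil points.

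Among the secreted semaphorins, Sema3f stood apart. Sema3f encodes a ligand that binds neuropilin-2 by preference. Its highest-ranked probe set (1438947_x_at) read 11.6 with oil, 88.9 after 24 h and 71.5 after 48 h of tamoxifen, or 7.69-fold and 6.19-fold above oil, with log2 ratios of 2.94 and 2.63. The suffix x marks a design in which some probes can bind other transcripts. The other kept probe set (1425840_a_at) read 5.27, 21.6 and 32.1, with ratios of 2.03 and 2.61, and its mean rank of 0.502 only just passed the filter. The last one (1420508_at), not kept, read 4.45, then 2.28, which is under the floor, and then 10.8, with ratios of -0.14 and 1.28. All 3 were above oil at 48 h and 2 of the 3 at 24 h, and the oil reading was dim in each. Between the tamoxifen arrays the kept probe sets gave -0.31 and 0.57, so the direction from 24 h to 48 h was not settled. Sema3f ranked 6 of 11092 genes by its ratio at 24 h and 20 at 48 h.

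The other secreted semaphorins lay within 2-fold of oil on their kept probe sets. Sema3a, the classic ligand of neuropilin-1 that repels axons, read 33.3 with oil, 64.5 after 24 h and 45.7 after 48 h on its kept probe set (1420416_at). The ratio of 0.96 at 24 h was just inside 2-fold, and it was 0.46 at 48 h. The dimmer probe sets parted: 1449865_at read 10.7, 16.8 and 11.5, with the same peak at 24 h, whereas 1420417_at read 10.5, 3.11 and 6.07, with its lowest reading there, under the floor. Sema3b, another neuropilin ligand, read 39.3, 58.7 and 59.7 on 1448415_a_at and 25.5, 32.5 and 29.8 on 1416644_a_at, with ratios of 0.58 and 0.35 at 24 h and 0.60 and 0.23 at 48 h. Its dimmest probe set (1431795_a_at), not kept, read 1.17 with oil, under the floor, then 8.37 and 23.1, so it was at least 2.07-fold higher at 24 h and at least 5.72-fold at 48 h. All 3 Sema3b probe sets were above oil at both times. Sema3c, a secreted semaphorin known from the developing heart and vessels, read 481, 491 and 580 on 1429348_at and 57.2, 88.2 and 90.6 on 1420696_at. Its ratios at 24 h were 0.03 and 0.63 and at 48 h 0.27 and 0.66, so both probe sets lay above oil, by different amounts.

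Sema6c, the membrane-bound member, approached 2-fold at 48 h. Its highest-ranked probe set (1451898_a_at) read 104.7 with oil and then 168.9 and 197.8, with ratios of 0.69 and 0.92. The second kept probe set (1423454_a_at) read 42.6, 36.0 and 99.7, with ratios of -0.24 and 1.23. A dim one (1437652_at) read 9.35, 7.25 and 9.73, with ratios of -0.37 and 0.06. All 3 lay above oil at 48 h, but at 24 h the first lay above it and the others below. From 24 h to 48 h the second was 2.77-fold higher, the only kept probe set of the 15 past 2-fold between the tamoxifen arrays. The share of all kept probe sets past 2-fold there was not computed. Counted by gene, 1.80% of all kept genes were higher and 1.42% lower.

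Sema6c has 2 annotated starts in RefSeq (GRCm38.p6), and both windows are shown because its probe sets disagreed at 24 h; which transcripts the probe sets detect was not examined. The first is chr3:95160170-95160419 and the second chr3:95164089-95164338, both on the plus strand.
Sema6c, first start: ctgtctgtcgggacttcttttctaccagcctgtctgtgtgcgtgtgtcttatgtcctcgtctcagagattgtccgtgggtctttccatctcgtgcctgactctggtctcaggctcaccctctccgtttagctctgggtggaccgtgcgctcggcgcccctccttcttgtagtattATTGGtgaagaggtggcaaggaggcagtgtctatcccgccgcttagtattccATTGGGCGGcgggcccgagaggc
Sema6c, second start: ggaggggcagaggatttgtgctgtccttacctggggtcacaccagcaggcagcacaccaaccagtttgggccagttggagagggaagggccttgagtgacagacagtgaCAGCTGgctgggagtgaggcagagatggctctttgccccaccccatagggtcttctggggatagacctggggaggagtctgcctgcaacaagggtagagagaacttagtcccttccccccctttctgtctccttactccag
In the first window CCAAT occurs 2 times on the opposite strand, starting 75 and 23 bases before the start, and the second of these overlaps a GC box that starts 20 bases before it. The second window holds 1 E-box, 141 bases before the start. CCAAT was in 33.8%, the GC box in 32.7% and the E-box in 13.0% of all windows. The first window has 15 CG pairs and the second 0, against a median of 6.

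The kept probe sets of the plexin genes lay nearer to oil than those of Flrt1 and Sema3f. At 48 h their ratios were close to the 0.60 of Sema3b. Plxna1, a signalling receptor for class 3 and class 6 semaphorins, read 44.8 with oil and then 59.2 and 68.3 on its kept probe set (1428623_at), with ratios of 0.40 and 0.61. Its other probe set (1421232_at) read 14.4, 3.30 and 10.3, below oil at both times and under the floor at 24 h, so it was at least 3.55-fold below oil there. Plxna3, a receptor paired with neuropilin-2 in Sema3f signalling, read 16.2, 14.0 and 24.8 on 1420996_at, with ratios of -0.21 and 0.61. On 1420995_at it read 5.60, 10.6 and 8.35, with ratios of 0.92 and 0.58. Both Plxna3 probe sets lay above oil at 48 h and on opposite sides of it at 24 h. None of these kept receptor readings passed 2-fold.

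**Figure D2:**
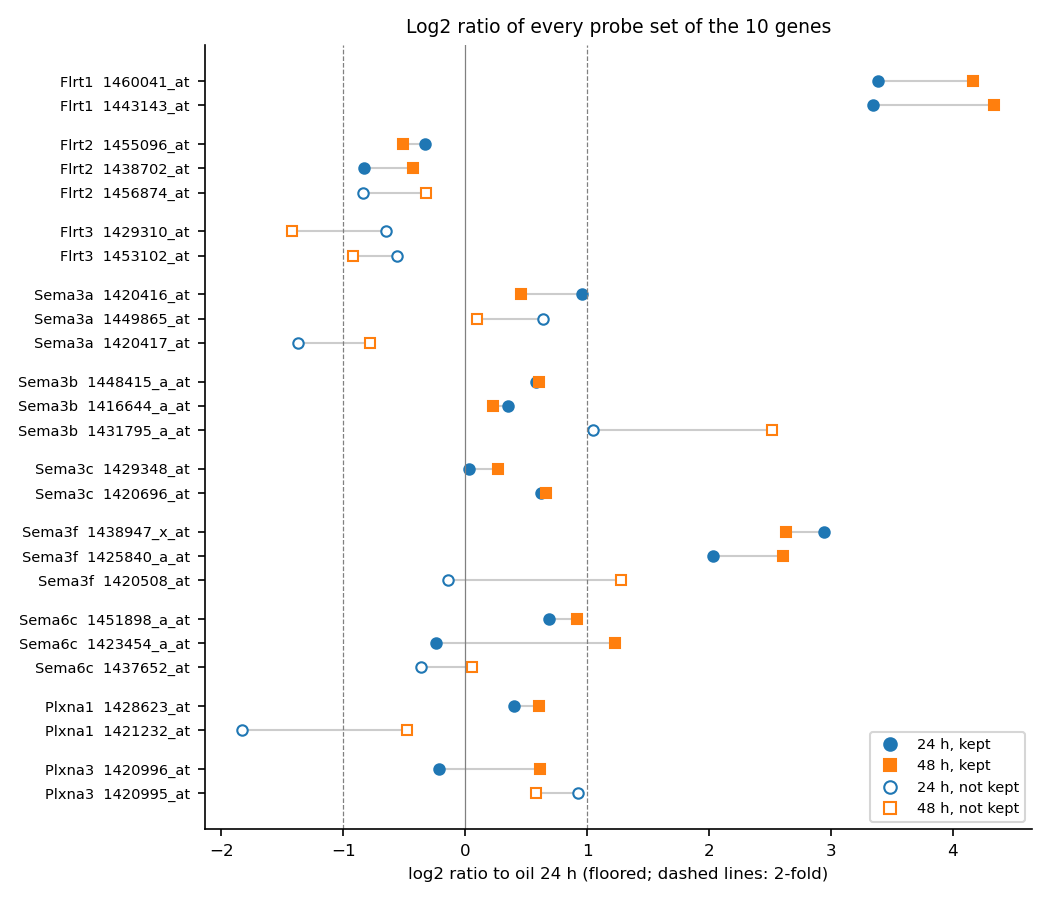
Log2 ratio to oil (x axis, with dashed lines at 2-fold) of each of the 25 probe sets (rows) at 24 h (circles) and 48 h (squares); filled symbols are kept probe sets and open symbols the others. Both probe sets of Flrt1 and the 2 kept probe sets of Sema3f lie beyond 2-fold at both times, while Sema3a, Sema3f, Sema6c, Plxna1 and Plxna3 have probe sets on both sides of 0 at 24 h, for Sema3f through the one not kept.

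Counted by gene, 2 of the 9 kept genes, Flrt1 and Sema3f, were 2-fold or more higher at 24 h, where 2.35% of all 11092 kept genes were, and 0 were lower, where 2.48% were. At 48 h the same 2 genes were higher, against 3.72% of all genes, and 0 were lower, against 2.71%. Between the tamoxifen arrays 0 of the 9 passed 2-fold in either direction, where 1.80% of all genes were higher and 1.42% lower at 48 h. By probe set, 4 of the 15 kept were 2-fold or more higher at 24 h and 5 at 48 h, against 2.33% and 3.86% of all 21804 kept probe sets. Because the genes were taken for these ratios, the counts describe them and are not evidence that the set as a whole changed.

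Flrt1 and Sema3f also met a narrower description, that all kept probe sets of a gene were 2-fold or more higher. Of 5001 genes with at least 2 kept probe sets, 0.40% met it at 24 h, 0.96% at 48 h and 0.28% (14 genes) at both times. Sema3f met it at 24 h because 1420508_at, with a ratio of -0.14, was not kept. With oil, 1443143_at of Flrt1 and 1438947_x_at and 1425840_a_at of Sema3f were deposited at 7.834, 11.48 and 5.235, below that array's median of 15.1. Those probe sets passed the filter through their tamoxifen readings. As the genes were taken for these ratios, the shares are a description and no measure of rarity. A low reading with oil enters both comparisons, since they have that array in common. Flrt1 lay in bin 3 of 4 equal bins of kept genes by rising mean signal, where 1.66% of genes were 2-fold higher at 24 h and 3.35% at 48 h, and Sema3f in bin 2, where 2.42% and 3.39% were. Both genes owe their place to the tamoxifen readings, since with oil they read 29.7 and 11.6, below the upper limit of 40.7 for a mean in bin 1, where 3.46% and 5.23% of genes were 2-fold higher.

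In the order of ratios at 24 h, Flrt1 (3.39) and Sema3f (2.94) were followed by Sema3a (0.96), Sema6c (0.69), Sema3b (0.58), Plxna1 (0.40), Sema3c (0.03), Plxna3 (-0.21) and Flrt2 (-0.33). The step from Sema3f to Sema3a was 1.99, and each other step was smaller than the spread of 0.488 between probe sets of a gene. Those neighbours were not distinguishable by this measure. The spread is that of probe sets about the mean of their gene, not of a difference between genes, and it leaves out mice and arrays. A step larger than the spread is therefore not shown to be real. At 48 h Flrt1 (4.17) led Sema3f (2.63) by 1.54, and Sema3f led Sema6c (0.92) by 1.71. The next 5 genes, from Plxna3 (0.61) to Sema3c (0.27), followed in steps under 0.412, and Flrt2 (-0.51) lay 0.78 below Sema3c.

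**Figure D3:**
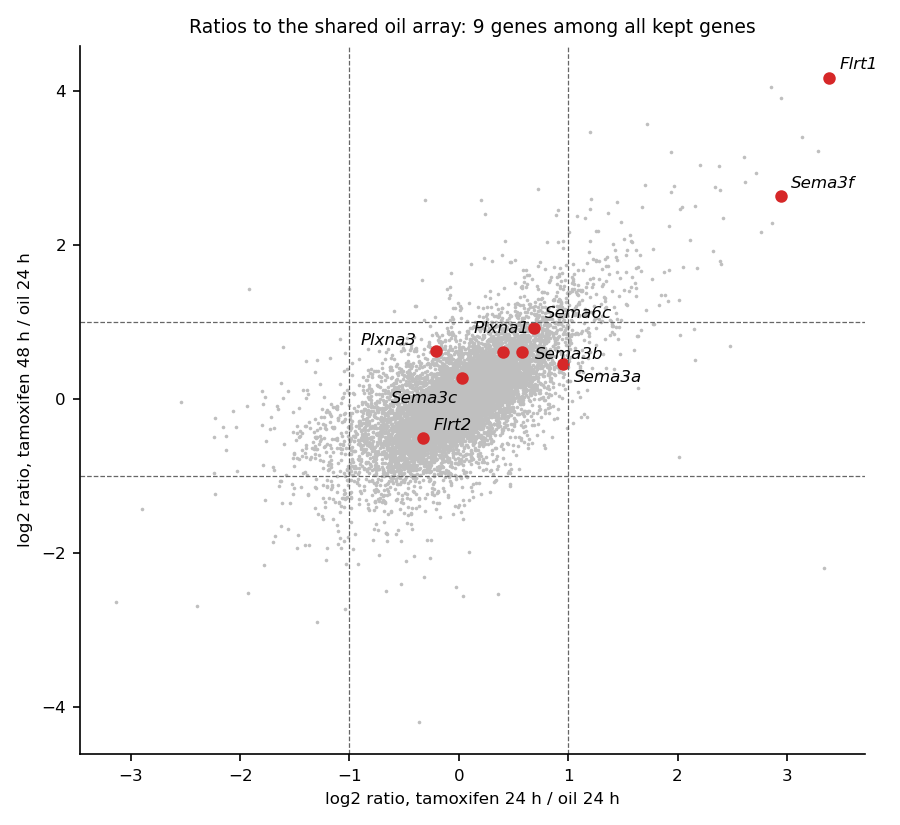
Log2 ratios to the shared oil array at 24 h (x axis) and 48 h (y axis) for all 11092 kept genes (grey) and the 9 kept genes of the set (red), with dashed lines at 2-fold. Flrt1 lies at the upper right end of the cloud at 3.39 and 4.17 and Sema3f at 2.94 and 2.63, while the other 7 lie inside 2-fold on both axes; the oil array enters both axes and by itself makes points spread along the diagonal.

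The genes with the pattern most like Flrt1, by distance in the pair of log2 ratios among 10736 genes over the 3 arrays, were Mybph, Efr3b, Lfng, Nmrk2 and Aars2. Mybph, a myosin-binding protein gene, was the nearest at a distance of 0.545 and read 259, 1872 and 4295 on the oil, 24 h and 48 h arrays. The other 4 lay farther off, at distances from 0.962 to 1.55. Nearest to Sema3f were Lcn2, Aars2, Lfng, Pttg1 and Srrd, at distances from 0.360 to 0.562. Lcn2, which encodes the secreted lipocalin 2, read 17.7, 128.8 and 86.1, lower at 48 h than at 24 h, as was the first Sema3f probe set. With 3 arrays such a likeness rests on a pair of ratios that share the oil array.

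The other genes of the pathway passed 2-fold about as often as genes in general. A list of 71 other semaphorins, plexins, neuropilins, FLRT binding partners and intracellular effectors was written from general knowledge, of which 70 were in the annotation and 52 were kept. At 24 h 1 of the 52 was higher, where 2.35% of all kept genes were, and 1 lower, where 2.48% were. At 48 h 2 were higher and 0 lower, against 3.72% and 2.71%, so these counts set the list apart from genes in general at neither time. Their median log2 ratio was 0.0041 at 24 h and 0.13 at 48 h, beside 0.04 and 0.0070 over all kept genes. The 2 genes higher at 48 h were Sema7a, a membrane-anchored semaphorin that binds integrins and plexin C1, and Plxnb3, a receptor for Sema5a. Sema7a read 115.1 with oil and then 290 and 260, or 2.52-fold and 2.26-fold higher. Plxnb3 read 18.4, 36.5 and 47.6, which is 1.99-fold at 24 h and 2.59-fold at 48 h. Each rested on 1 kept probe set. The gene lower at 24 h was Sema5a, a membrane semaphorin, which read 55.4, 17.2 and 42.6 (3.22-fold lower at 24 h), but its other kept probe set had a ratio of 0.17 there.

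The receptors and partners that Flrt1 and Sema3f bind stayed within 2-fold on the probe sets of highest mean rank, as most kept genes did. Nrp1, encoding the main Sema3a receptor, read 550, 445 and 667, and 1 of its other 3 kept probe sets had a ratio of -1.11 at 24 h. Nrp2, encoding the Sema3f receptor, read 56.7, 69.5 and 59.0, and its other kept probe sets had ratios between -0.45 and 0.69 at 24 h. Plxna2, a further A plexin, read 82.8, 80.6 and 97.2, and its other kept probe sets had ratios between -0.25 and 0.34 over both times. Among FLRT partners, Unc5b, a repulsive receptor, read 32.3, 33.2 and 42.2, Adgrl1 (latrophilin 1) read 45.3, 72.6 and 68.0, and Fgfr1 read 153.6, 132.3 and 128.2. The other kept probe set of Unc5b had ratios of -0.67 at 24 h and 0.01 at 48 h, and that of Adgrl1 0.33 and -0.32. Those of Fgfr1 lay between -0.69 and -0.18 over both times. Unc5c, Unc5d, Adgrl3 and Robo1 had no kept probe set, and Unc5d was at the floor on all arrays. Of 30 annotated effectors 26 were kept, among them Rac1 and the collapsin response mediators Dpysl2 and Dpysl3, whereas Crmp1, Dpysl4, Dpysl5 and Rnd1 were not. On the probe sets of highest mean rank 0 of the 26 passed 2-fold at either time, with medians of 0.01 and 0.14. Of all kept genes 2.35% were higher and 2.48% lower at 24 h, and 3.72% and 2.71% at 48 h. With so few effectors, a count of 0 does not set them apart from genes in general. Other kept probe sets did pass it downward for 4 of them, with ratios of -2.39 for Gsk3b, -1.21 for Cfl2 and -1.12 for Trpm7 at 24 h and -1.16 for Fes at 48 h. These are the lowest of the other kept probe sets. At 24 h the highest were -0.42 for Gsk3b, 0.02 for Cfl2 and 0.55 for Trpm7. The share of all genes with such a probe set was not computed, so no direction of the effectors is read from these values.

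**Figure D4:**
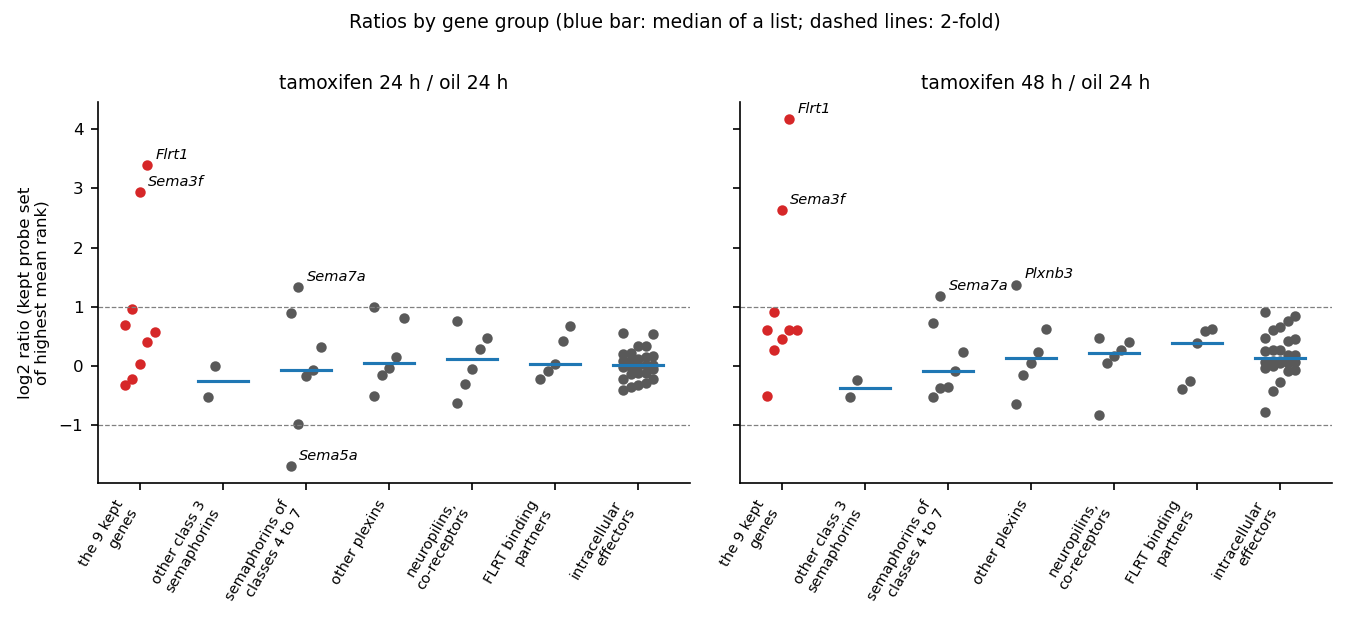
Log2 ratio to oil (y axis) at 24 h (left) and 48 h (right) for the 9 kept genes of the set (red) and for 6 lists of related genes (dark grey), each point a gene on the kept probe set with the highest rank, with a blue bar at each list's median and dashed lines at 2-fold. Flrt1 and Sema3f exceed every gene of the 6 lists at both times, and of those lists Sema7a, Sema5a and Plxnb3 pass 2-fold.

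The labelled tissue was checked against muscle fibre markers, and markers of other cells that make guidance factors were read beside the results. All 10 fibre markers were kept and their summed signal ranged from 82920 to 85380 over the arrays. Of 10 motor neuron and axon markers 1 was kept, Stmn2, at 61.2, 38.3 and 34.2, and Snap25 was at the floor on all arrays; axons in muscle carry little of a motor neuron's RNA. All 7 Schwann cell markers in the annotation were kept, summing to 2416, 2337 and 2188, and the 10 endothelial markers summed to 1702, 1732 and 1436. Mbp and Pmp22 made up most of the Schwann cell sum, with 1280 and 945 on oil. Within that list Mag was 2.01-fold lower at 24 h. The other kept probe sets of Mbp lay between -1.03 and -0.16 at 24 h and between -1.38 and -0.42 at 48 h. The part of these cells in the Flrt1 and Sema3f readings was not tested. Of 10 satellite cell and myoblast markers 8 were kept and summed to 604, 638 and 754. Their median ratio was -0.06 at 24 h and -0.19 at 48 h. At 48 h Pax7, Myf5, Vcam1 and Chodl lay below oil, Heyl was close to it (-0.02), and Myod1, Myog and Cdh15 lay above it. The other kept probe sets at 48 h ranged from -0.97 to 0.28 for Vcam1 and from -0.15 to 0.63 for Heyl. Within that list Cdh15, encoding M-cadherin, read 43.5, 103.5 and 150.2 and Myog, encoding myogenin, 62.6, 59.2 and 126.8, while Pax7 read 18.5, 13.0 and 13.6, and the part of these cells was likewise not tested. The fibroblast and tendon list (10 of 10 kept) summed to 15060, 13430 and 13800, macrophages (10 of 10) to 2643, 2680 and 2158, adipocytes (7 of 8 in the annotation) to 4716, 5439 and 4047, neutrophils (3 of 8) to 168.7, 105.1 and 59.5 and keratinocytes (3 of 10) to 161.1, 213.8 and 202.3. A sum follows its brightest genes. In these lists Pparg and Cidec were 2-fold or more higher at 24 h and Ngp lower. At 48 h Pparg, Col1a1 and Trp63 were higher and Cd163, S100a8, S100a9 and Retn lower. Of all kept genes 2.35% were higher and 2.48% lower at 24 h, and 3.72% and 2.71% at 48 h.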

How the data were processed

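RNA from gastrocnemius of 3 groups (oil 24 h, tamoxifen 24 h, tamoxifen 48 h) was measured on 1 array each. The deposited values are intensities on a linear scale that the authors made from the scanned arrays; summary, background correction and scaling are not given in the sources used here. All 3 columns were used. Of 45101 probe sets, 64 controls were left out; 34945 had 1 gene and 932 several in the platform annotation, with symbols updated by Entrez identifier to RefSeq (GRCm38.p6). Probe sets with a mean percentile rank of 0.5 or more were kept (21804). Arrays were scaled to a common median over these (factors 1.01, 0.944 and 1.05), values under the 25th percentile (4.05) were set to it, and log2 was taken. Precision is limited by the number of arrays, and no test between groups was run. Scaling and ratios were tested on simulated arrays, in Python 3.11.15 and pandas 2.3.3. The genes, lists and alternatives were chosen with earlier results of these data known. Named genes are all members, listed pathway genes past 2-fold, 6 receptors and the 5 genes nearest in pattern to Flrt1 and Sema3f. The cell markers given by name, the effectors given with values and the genomic neighbours were named after their values were seen.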

Additional observations from a re-analysis of the deposited data

How the results depend on the processing

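Each ratio and count was recomputed under 9 alternatives: 2 scalings, 3 filters, 3 treatments of low values and the median of a gene's kept probe sets. With a filter at rank 0.75 only 4 of the genes were kept, Sema3f not among them, and 1 gene was higher at 24 h and 1 at 48 h, both times Flrt1. Under the other 8 alternatives the counts stayed within 1.5 times. The share of all genes that was higher moved more: at 24 h it ran from 1.14% with the pseudocount to 7.40% with no filter (2.35% in the main processing), and at rank 0.75 it was 1.43% at 24 h and 2.78% at 48 h. The ratio of Flrt1 at 24 h lay between 2.84 and 3.68 and at 48 h between 3.59 and 4.25, and that of Sema3f, where it was kept, lay between 1.93 and 3.23 and between 1.67 and 2.76. The lowest of these came from a pseudocount of 16 in place of the floor, which shrinks ratios of dim probe sets by construction. Sema3a passed 2-fold at 24 h unscaled (1.05), after quantile normalization (1.02), with no filter (1.25) and at rank 0.25 (1.09), and Sema6c passed it at 48 h as a median of probe sets (1.07). The filters also change the scaling, since its median is taken over kept probe sets. With no filter the ratios of other genes at 24 h rose too, Sema3b from 0.58 to 0.87 and Sema3c from 0.03 to 0.32. Of 228 member ratios, 223 kept their side of 2-fold; 11 changed sign, none of which had been 2-fold or more. Without scaling the median of all genes was 0.13 at 24 h, -0.05 at 48 h and -0.18 between the tamoxifen arrays. Flrt1 ranked 1 of all genes at both times under every setting except with the pseudocount, where it ranked 2 at 48 h; Sema3f, where kept, ranked between 5 and 13 at 24 h and between 19 and 40 at 48 h. Signal limits the reading: with oil, Flrt1 read 7.89 and Sema3f 5.27 on a kept probe set, close to the floor of 4.05.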

Other observations

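Protein-coding genes beside or around the set were taken from the RefSeq order (GRCm38.p6). Of those kept, Ifrd2 and Galc were 2-fold or more higher at 24 h, where 2.35% of all kept genes were. At 48 h only Ifrd2 was, against 3.72%. The other kept neighbours lay within 2-fold of oil. Flrt1 lies within the span of Macrod1, which read 832, 976 and 852 on the oil, 24 h and 48 h arrays or 1.17-fold and 1.02-fold of oil. Flrt3 lies within the span of Macrod2, which read 88.7, 136.2 and 73.1. Ifrd2, the next gene on the left of the Sema3b and Lsmem2 pair, read 64.8, 132.6 and 183.6, or 2.05-fold and 2.84-fold higher. Rbm5, beside Sema3f, read 362, 382 and 312. Galc, encoding a lysosomal enzyme of myelin lipid breakdown, lies next to Flrt2 and read 13.4, 35.3 and 26.2, 2.65-fold higher at 24 h, against the direction of Flrt2. Otub1, next to the Flrt1 locus on the right, read 80.1, 106.4 and 142.7, or 1.33-fold and 1.78-fold of oil. These are single readings, and no relation between neighbours was tested.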
